A study of Mus musculus with 11 samples.

Results

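Psca, Slurp1, Adgra1, Bok, Marcksl1, Spink12 and Igfbp2 are 7 of the 28692 genes counted in single-cell RNA sequencing of mouse kidneys at 28 days after injury. They were chosen by their measured expression in these same libraries, in that their levels were near zero in control cells of the thick ascending limb (TAL) or distal tubule (DT) and higher there after injury. The levels in these segments are therefore given as a description, with no test. The libraries came from male C57Bl/6 mice. The study's methods give an age of 10 weeks at injury, with kidneys taken at 28 days. They do not say whether the controls were matched to the age at injury or at harvest. The 5 control libraries came from uninjured mice matched in age, strain and sex, the 3 UIR libraries from kidneys after unilateral ischemia-reperfusion, in which the left renal pedicle was clamped for a time, and the 3 UUO libraries from kidneys after irreversible ligation of the left ureter. Libraries are numbered in the order of deposit within each group, and the controls were done in 3 batches. No batch is given for the UIR and UUO libraries, so batch and group cannot be told apart.

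The TAL takes up sodium chloride through the transporter encoded by Slc12a1 and secretes uromodulin, while the DT takes up sodium chloride through the transporter encoded by Slc12a3. Injured tubular cells are known for keratins and lipocalin 2. Psca and Slurp1 belong to the Ly6/uPAR family of small proteins with a three-finger fold. Psca is anchored to the cell surface and is known from prostate and bladder epithelium, and Slurp1 is secreted, is known from skin and acts on nicotinic acetylcholine receptors. Adgra1 is an adhesion G protein-coupled receptor with no known ligand, Bok is a pro-apoptotic member of the BCL2 family, and Marcksl1 is a substrate of protein kinase C that binds calmodulin and actin. Spink12 is a Kazal-type inhibitor of serine proteases, and Igfbp2 binds insulin-like growth factors (IGFs) outside the cell.

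Promoter sequences were at hand for 4 of the 7 genes, in RefSeq on GRCm38.p6, and 4 stretches of 250 bases before a transcription start are shown, because the genes stand at or near zero in control TAL cells and are all detected in injured ones. Each is written 5′ to 3′ on the plus strand, on which these genes lie, and capitals mark a motif match.
Adgra1, chr7:139833924-139834173: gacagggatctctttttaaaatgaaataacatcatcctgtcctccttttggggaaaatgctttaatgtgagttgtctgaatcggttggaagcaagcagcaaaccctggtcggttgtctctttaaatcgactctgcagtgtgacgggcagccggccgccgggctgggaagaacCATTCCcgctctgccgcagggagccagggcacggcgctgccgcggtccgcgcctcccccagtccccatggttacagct
Bok, chr1:93685325-93685574: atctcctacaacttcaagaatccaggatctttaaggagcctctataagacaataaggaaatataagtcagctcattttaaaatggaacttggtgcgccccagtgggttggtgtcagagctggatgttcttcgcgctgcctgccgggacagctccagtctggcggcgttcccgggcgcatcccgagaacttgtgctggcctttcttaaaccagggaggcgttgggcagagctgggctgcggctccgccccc
Marcksl1, chr4:129513331-129513580: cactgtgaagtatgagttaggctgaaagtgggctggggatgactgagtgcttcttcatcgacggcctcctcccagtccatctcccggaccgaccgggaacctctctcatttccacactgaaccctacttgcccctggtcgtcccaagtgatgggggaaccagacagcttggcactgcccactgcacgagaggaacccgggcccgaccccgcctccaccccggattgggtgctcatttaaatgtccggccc
Igfbp2, second annotated start, chr1:72825137-72825386: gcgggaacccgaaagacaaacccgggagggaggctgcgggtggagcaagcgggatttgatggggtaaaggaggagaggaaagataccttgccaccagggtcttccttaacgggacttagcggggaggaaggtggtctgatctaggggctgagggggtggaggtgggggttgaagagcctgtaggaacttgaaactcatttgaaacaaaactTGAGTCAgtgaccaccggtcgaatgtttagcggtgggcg
Both strands were searched for the AP-1 motif, spelled TGANTCA. The TEAD motif was spelled GGAATG. The SOX motif was spelled AACAAT. The TATA motif was spelled TATAAA, and no match overlapped another. The Igfbp2 promoter at its second start held TGAGTCA 39 bases before the start, and the Adgra1 promoter held CATTCC, the TEAD motif on the other strand, 78 bases before the start. None of the 4 motifs was found in the promoters of Bok and Marcksl1 or at the other Igfbp2 start. Of 32851 promoters of this length, 6.75% held the AP-1 motif, 12.6% the TEAD motif, 9.42% the SOX motif and 12.4% the TATA motif, so a match is common and is a description only.

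Each library held 49503312 to 117043590 unique molecular identifiers (UMIs, each marking 1 captured RNA molecule), and 40576 cells were kept in all, with 1858 to 2521 in each control, 4010 to 7443 in each UIR and 3792 to 5285 in each UUO sample. Barcodes with over 30% mitochondrial UMIs made up 57.1% to 78.8% of called barcodes in the control, 23.9% to 37.3% in the UIR and 3.15% to 7.92% in the UUO libraries, and were left out. Cells were named "-like" from marker genes, and the UMIs of a class were summed per library and divided by the UMI total of the class in that library, and are given on the CPM scale usual for sequencing counts. A control library held 44 to 63 TAL-like cells, a UIR library 400 to 521 and a UUO library 159 to 374. The DT-like cells came to 28 to 66, 87 to 138 and 45 to 70. The summed level of the 5 TAL markers in TAL-like cells was 19249 to 23834 CPM in control, 13111 to 13737 in UIR and 7471 to 8508 in UUO libraries. The controls in TAL hold 1956670 UMIs in all, so that a count of 0 there allows up to 1.53 CPM (3 counts), and this floor and all intervals cover counting error only.

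In TAL-like cells all 7 genes were higher in every injured library than in every control library. Psca was the most abundant of them by CPM in the mean of both injuries. No Psca UMI was found in any of the 5 control libraries. The UIR libraries held 131, 77.5 and 84.5 CPM (mean 97.6 ± 28.9, SD, n = 3) and the UUO libraries 212, 139 and 172 CPM (174 ± 36.7, SD, n = 3). Against the control floor, Psca was at least 63.2-fold higher in UIR and at least 114-fold higher in UUO. The lowest UUO library was above the highest UIR library, and no library of either injury came near zero.

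Slurp1, the secreted family member, was also at 0 in all 5 control libraries. It reached 69.6, 28.5 and 39.4 CPM in UIR (45.8 ± 21.3, SD, n = 3) and 74.8, 38.2 and 137 CPM in UUO (83.3 ± 49.9, SD, n = 3). The level was at least 29.7-fold and at least 47.4-fold above the control floor. UIR and UUO libraries overlapped.

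Adgra1, the orphan receptor, was at 0 in the 5 control libraries. It reached 35.3, 48.5 and 35.1 CPM in UIR (39.6 ± 7.65, SD, n = 3) and 98.0, 65.3 and 119 CPM in UUO (94.0 ± 26.9, SD, n = 3), at least 25.7-fold and at least 58.0-fold above the floor. All 3 UUO libraries lay above all 3 UIR libraries.

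Bok, the BCL2 family member, was at 0 in 4 control libraries and at 5.17 CPM in control replicate 3, on 2 UMIs. The UIR libraries held 55.9, 83.4 and 64.3 CPM (67.8 ± 14.1, SD, n = 3) and the UUO libraries 138, 145 and 149 CPM (144 ± 5.56, SD, n = 3). On these counts the ratio to control was 66.3 for UIR (95% exact interval 18.3 to 548) and 140 for UUO (38.7 to 1156). Every injured library stood far above that control library, and no UUO library overlapped a UIR library.

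Marcksl1, the actin-binding kinase substrate, was at 0 in 3 control libraries and at 2.58 and 2.38 CPM in control replicates 3 and 5. The UIR libraries held 81.3, 66.2 and 76.6 CPM (74.7 ± 7.72, SD, n = 3) and the UUO libraries 95.2, 78.7 and 74.4 CPM (82.8 ± 10.98, SD, n = 3). Marcksl1 was thus 73.2 times the control level after UIR (95% exact interval 20.2 to 605) and 82.5 times after UUO (22.8 to 682). The 2 injuries overlapped for this gene.

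Spink12 and Igfbp2 were scarce in TAL-like cells. Spink12, at 0 in all controls, reached 6.34, 10.2 and 6.08 CPM in UIR and 15.4, 13.3 and 9.13 CPM in UUO, at least 4.89-fold and at least 8.65-fold above the floor. Igfbp2, also at 0 in all controls, reached 4.01, 7.29 and 1.01 CPM in UIR and 15.4, 4.42 and 3.86 CPM in UUO, at least 2.59-fold and at least 5.61-fold above the floor. The lowest UIR library of Igfbp2 lay below the floor of the summed controls, and without UUO replicate 1 its UUO mean fell from 7.91 to 4.14 CPM.

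**Figure D1:**
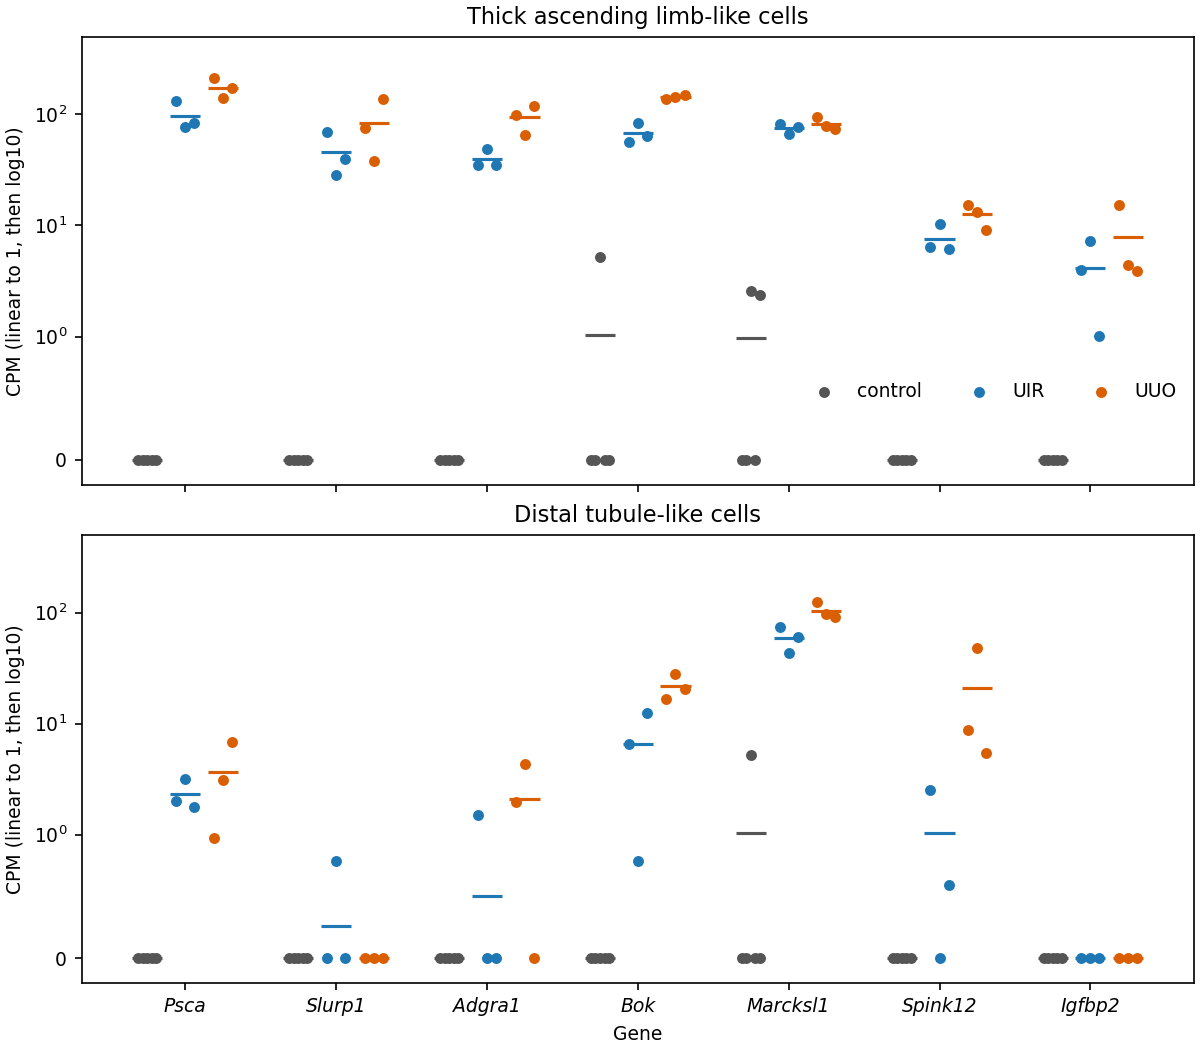
Level of each of the 7 genes in thick ascending limb-like (top) and distal tubule-like (bottom) cells, 1 point per library and a bar at the mean of the group, in CPM on an axis that is linear to 1 and then log10. In the thick limb every UIR and UUO point lies above every control point, and in the distal tubule Marcksl1 reaches 43.4 to 124 CPM while Igfbp2 stays at 0.

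In DT-like cells Marcksl1 was the abundant member. It was at 0 in 4 control libraries and at 5.17 CPM in control replicate 3, on 2 UMIs. The UIR libraries held 74.5, 43.4 and 60.02 CPM and the UUO libraries 124, 97.2 and 90.6 CPM, and the ratio to control was 66.6 for UIR (95% exact interval 18.3 to 552) and 112 for UUO (30.9 to 932). Every UUO library lay above every UIR library. The groups are compared between different clusters here too: of the DT-like cells, the 244 control cells lay in T17 and T27, while T5, with no control cell, held 271 of 324 UIR and 163 of 174 UUO cells.

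Bok was at 0 in all 5 control libraries of DT-like cells and reached 6.54, 0.789 and 12.5 CPM in UIR and 16.6, 27.9 and 20.6 CPM in UUO, at least 5.11-fold and at least 16.5-fold above the floor of 1.39 CPM. UIR replicate 2 was the low library, with a level below that floor, and without UIR replicate 3 the UIR mean fell from 6.60 to 3.67 CPM. Spink12 was at 2.52, 0 and 0.594 CPM in UIR and at 8.79, 48.3 and 5.49 CPM in UUO, at least 19.5-fold above the floor in UUO, a value that UUO replicate 2 carried: without it the UUO mean fell from 20.9 to 7.14 CPM. Psca reached 1.78 to 3.16 CPM in UIR and 0.977 to 6.86 CPM in UUO, which is below its mean level in the empty droplets of the same groups (6.03 and 13.1 CPM). Adgra1 reached at most 4.34 CPM, Slurp1 had 1 UMI in 1 UIR library, and Igfbp2 was at 0 in every library. The mean level of Bok was also below that of the empty droplets (16.3 and 42.8 CPM), while Marcksl1 was above it in both injuries (20.003 and 51.3 CPM). With cells gated one by one on markers the DT mean of Bok was 19.5 CPM in UIR and 116 CPM in UUO, above those droplets. Spink12 was above its level in the droplets (8.84 CPM) in UUO, but not without UUO replicate 2. Free RNA, as found in those droplets, made up an estimated 2.13% to 6.92% of the UMIs of injured DT-like cells per library. A level below that of the droplets can therefore still exceed the free RNA among these cells.

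The injured DT-like cells also differed from the controls in their markers. The summed level of 4 DT markers was 4149 to 7769 CPM in control, 1671 to 2641 in UIR and 559 to 1257 in UUO libraries, and that of 6 PC markers, of the principal cells of the collecting duct, 4.49 to 18.7, 1184 to 1272 and 1330 to 1666 CPM. Hsd11b2, the enzyme that inactivates corticosterone, made up most of the latter, at 4.62, 1150 and 1270 CPM, while of the others Fxyd4, a regulator of the sodium pump, was at 3.24, 37.9 and 125 CPM, Scnn1g, a subunit of the epithelial sodium channel, at 0, 20.5 and 38.9 CPM and Aqp3, a basolateral water channel, at 0.925, 12.8 and 24.4 CPM in control, UIR and UUO. The water channels Aqp2 and Aqp4 were at 3.70, 3.24 and 0.297 CPM and at 0.462, 0.203 and 0 CPM. The summed level of 7 IC markers, of intercalated cells, was 0 to 189.5 CPM in control, with a median of 13.3, and 69.5 to 110.2 in UIR and 166 to 617 in UUO libraries. That of the frTEC markers was 12.9 to 67.5, 129.8 to 237 and 201 to 255 CPM. Macrophage markers went from 0 to 9.02 CPM in control to 30.2 to 58.4 in UIR and 48.0 to 73.7 in UUO. The part of these markers in the levels of Marcksl1, Bok and Spink12 was not tested. In every UUO library the PC markers summed to more than the DT markers. Cluster T5 was named on a DT score of 0.18, where 0.15 was required, so the DT name of these cells is uncertain.

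Of the 14 combinations of gene and segment, 10 had every UIR and every UUO library above every control library, all 7 genes in TAL and Psca, Bok and Marcksl1 in DT. All 7 genes passed edgeR's filter on low counts in TAL and 2 of 7, Bok and Marcksl1, in DT. The share of all genes with every injured library above every control library was not computed. A different measure is the share called in either direction by edgeR's quasi-likelihood test at an adjusted p under 0.05. In TAL, 30.9% of the 11392 genes tested differed from control in UIR and 36.5% in UUO. In DT, 36.6% of the 8582 genes tested differed from control in UIR and 40.9% in UUO. The rule used these same contrasts, and nothing is read from the count of members. UIR and UUO share the control libraries, so their agreement is not independent. The count of 10 was 8 with free RNA subtracted and 12 with cells named one by one on markers, 10 to 11 without single libraries and 9 without T2, a TAL-like cluster of injured cells.

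Markers of other cells moved with these levels in TAL-like cells, and their part in the result was not tested. The summed level of 4 macrophage markers was 0 to 4.61 CPM in control, 28.6 to 57.9 in UIR and 48.1 to 57.5 in UUO libraries, that of 5 T and NK cell markers 0, 2.20 to 14.1 and 5.27 to 12.03 CPM, and that of 8 markers of the proximal tubule (PT) 220 to 363, 53.7 to 102 and 11.3 to 21.3 CPM. The 4 markers of failed repair tubular epithelial cells (frTECs), the study's name for an injured epithelial cluster, were at 30.6 to 124, 534 to 626 and 774 to 1243 CPM. The 6 PC markers were at 8.36 to 38.0, 73.1 to 144 and 53.7 to 119 CPM. Those of the connecting tubule, 4 in all, were at 73.7 to 201, 232 to 513 and 77.6 to 245 CPM. In a small TAL-like cluster (T31, 93 cells, a median of 1275 UMIs) the 5 T and NK cell markers summed to 359 CPM. There the PC markers summed to 862, the frTEC markers to 906 and the IC markers to 423 CPM, against 4418 CPM for the TAL markers. In its 76 UUO cells these sums were 1185, 911, 911 and 1771 CPM in the same order. Without T31 Psca was at 94.6 CPM in UIR and 175 CPM in UUO.

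Psca also marks urothelium, so the 7 urothelial markers were measured. Their summed level in TAL-like cells was 0 to 10.3 CPM in control, 15.3 to 20.9 in UIR and 17.6 to 19.99 in UUO libraries. Upk3a, a uroplakin of the urothelial surface, was at 0 in all 3 groups, Upk2 had 1 UMI in UIR and Upk1b 1 UMI each in UIR and UUO. Krt5 and Trp63, which mark basal urothelial cells, were at 0.0409 and 1.68 CPM in UIR and at 0.0717 and 0.861 CPM in UUO. Upk1a stayed at 3.58, 3.72 and 4.23 CPM in control, UIR and UUO (adjusted p = 0.8846 and 0.9754, edgeR's quasi-likelihood test). Upk3b was at 0.511 CPM in control, on 1 UMI, and at 11.6 CPM in UIR and 13.8 CPM in UUO. Its log2 fold change was 4.21 and 4.44 (adjusted p = 9.007e-05 and 2.553e-05, edgeR's quasi-likelihood test). With 1 control UMI, it passed the filter on low counts by way of the injured libraries. In the 22 urothelial-like cells of the series, Psca stood at 297 CPM, Igfbp2 at 479 and Marcksl1 at 226, with Upk3a at 922, Upk2 at 206 and Krt5 at 1025 CPM. These levels rest on few cells. Of the 75 Psca UMIs, 73 came from 1 cell, the only one of control replicate 1. Of the Igfbp2 UMIs, 52 came from the single cell of control replicate 2, 46 from 2 cells of UUO replicate 2 and 16 from the cell of control replicate 1. Slurp1, Adgra1 and Spink12 had no UMI in these cells.

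Free RNA was measured in the empty droplets. Psca was at a mean of 0.452 CPM there in control, 6.03 in UIR and 13.1 in UUO libraries, and Marcksl1 at 1.36, 20.003 and 51.3 CPM. Bok was at 5.95, 16.3 and 42.8 CPM and Igfbp2 at 0.412, 12.4 and 21.3 CPM. The mean level of Igfbp2 in TAL-like cells was thus below that of the empty droplets, and those of Psca, Slurp1, Adgra1, Bok, Marcksl1 and Spink12 were above it in both injuries. An estimated 2.36% to 13.9% of the UMIs of a TAL pool came from free RNA. A level below that of the droplets can therefore still exceed the free RNA in a pool. When the share was subtracted, no TAL or DT member mean of 5 CPM or more moved by more than the spread between libraries.

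To compare cells at equal depth, each cell was thinned to 1500 UMIs, and 35 control, 84 UIR and 97 UUO cells of TAL below that were left out. Before thinning, the median TAL-like cell held 5337 UMIs in control, 11618 in UIR and 12646 in UUO, and the median T or NK cell 3974.5, 3572 and 4235. At this depth 0 of 237 control cells held a UMI of any of the 7 genes, which allows a share of cells with a UMI of up to 1.27% and sets no limit on cells that express them, since the pool held 2 Bok and 2 Marcksl1 UMIs before thinning. Psca was detected in 6.26% of UIR and 12.5% of UUO cells, Adgra1 in 4.33% and 12.6%, Bok in 8.13% and 18.04%, and Marcksl1 in 9.74% and 11.1% (means of 3 libraries). In T and NK cells, which should lack Psca, it was detected in 0.0502% of UIR and 0.0669% of UUO cells, and Marcksl1 in 1.12% and 1.68%. Slurp1 was detected in 1.88% and 4.89% of TAL cells, Spink12 in 0.886% and 1.48% and Igfbp2 in 0.241% and 0.807%. In T and NK cells Igfbp2 was detected in 0.516% and 0.369%, and 100 of its UIR counts in the class lay in cluster 20, at 147 CPM. That cluster was led by cell cycle genes such as Top2a and Mki67, had no T or NK marker among its top 10 genes, and held Bok at 75.1 CPM in UIR. Without thinning, Psca was detected in 33.0% and Marcksl1 in 57.2% of UUO cells.

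At this depth 25% of 1256 UIR cells and 44.2% of 753 UUO cells of TAL held a UMI of at least 1 of the 7 genes, and 5.33% and 14.1% held at least 2 of them. In UUO, 97 cells held Psca, 37 held Slurp1 and 13 held both, and 89 held Adgra1, of which 16 also held Psca. In DT-like cells at least 1 of the genes was found in 0.474% of the controls, and in 10.3% and 20% of the cells after UIR and UUO.

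The 7 genes were unevenly spread over the TAL-like clusters. The clustering left out the 7 genes themselves. Its resolution was chosen after member levels had been seen, so the differences between clusters are a description. Of the 272 control cells, 145 lay in T19 and 122 in T16. Of the injured cells, 436 UIR and 202 UUO cells lay in T0, 419 and 201 in T1, and 223 and 337 in T2, which held no control cell and was led by Mmp7, Cxcl5, Psca, Slurp1 and Lcn2. The groups are thus compared between different clusters of the class.

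In cluster T2, Psca stood at 249 CPM in UIR and 268 CPM in UUO, Slurp1 at 177 and 134, Adgra1 at 128 and 159, and Bok at 143 and 219 CPM. In T0, the same genes stood at 68.7 and 78.9, 9.17 and 8.32, 18.4 and 13.9, and 59.7 and 72.8 CPM. T2 held 946 of the 1111 Slurp1 counts and 685 of the 964 Adgra1 counts of UIR, and 963 of 1013 and 1142 of 1240 in UUO. The name of T2 lies close to the limit: its TAL score was 0.196 against 0.13 for the frTEC markers, where a ratio of 1.5 was required, and no TAL marker was among its 10 leading genes. Without T2 the TAL mean of Slurp1 fell from 45.8 to 8.67 CPM in UIR and from 83.3 to 6.995 CPM in UUO, and that of Adgra1 from 39.6 to 14.7 and from 94.0 to 16.8 CPM. Psca was then at 54.5 and 74.04 CPM, Bok at 46.8 and 62.5 and Marcksl1 at 64.8 and 69.6 CPM. In T19, which held most control cells, Psca, Slurp1, Adgra1 and Bok were at 0 in 32 UIR cells and Marcksl1 was at 9.62 CPM.

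Slc12a1, the transporter of the segment, was lowest in T2 of the clusters that follow. In UIR it stood at 8358 CPM in T19, 8116 in T20, 5239 in T1, 3505 in T0 and 753 in T2, and in UUO at 5350 CPM in T20, 4083 in T1, 2737 in T0 and 450 in T2. The remaining clusters did not follow this order. In T16 the 64 UIR cells held Slc12a1 at 2912 CPM, Bok at 6.36 CPM and Psca, Slurp1 and Adgra1 at 0. In T31 the 76 UUO cells held Slc12a1 at 243 CPM, Psca at 156, Slurp1 at 13.02, Adgra1 at 21.7 and Bok at 60.8 CPM. Marcksl1 ran from 9.62 CPM in T19 to 110 CPM in T2 in UIR and from 28.7 CPM in T20 to 109 CPM in T31 in UUO.

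**Figure D2:**
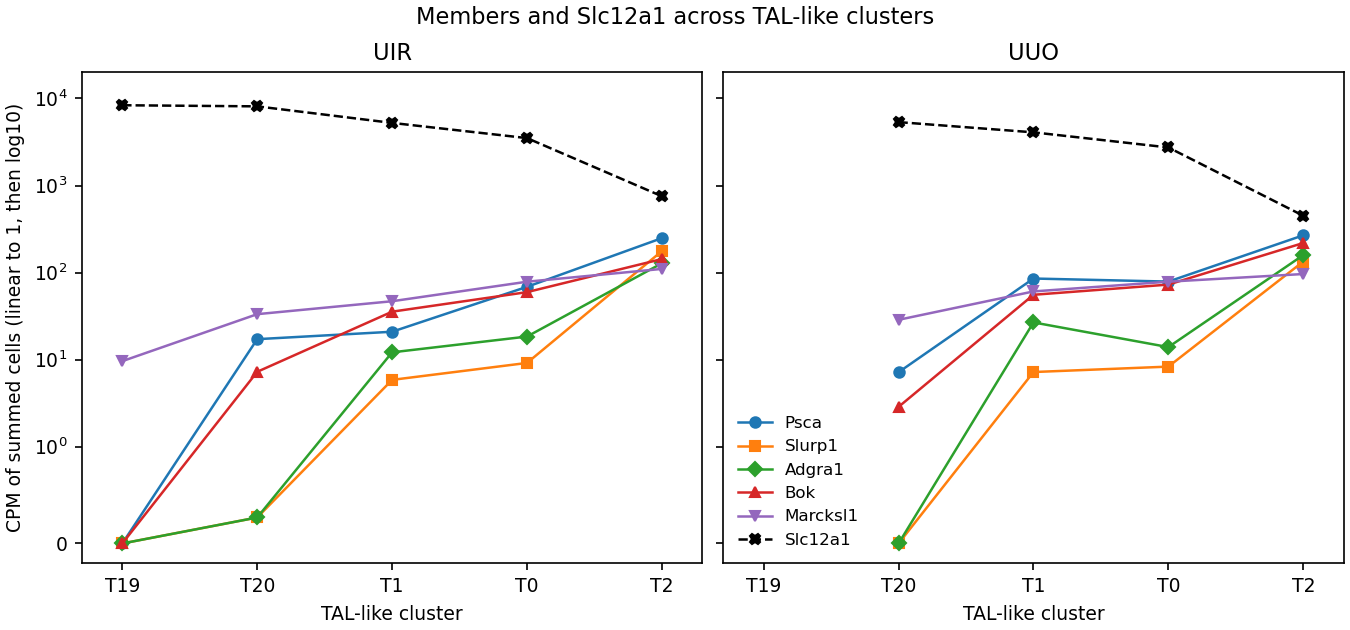
Level of 5 of the genes and of Slc12a1 in 5 TAL-like clusters of UIR (left) and UUO (right) kidneys, as CPM of the summed cells on an axis linear to 1 and then log10, with clusters in falling order of Slc12a1 and lines that only join the points. Of the clusters shown, Slurp1 and Adgra1 are highest in T2, where Slc12a1 is lowest at 753 and 450 CPM. T16 and T31 are not shown.

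When cells were gated one by one on markers instead of by cluster, several levels moved by more than 1.5 times. In UIR, Slurp1 in TAL went from 45.8 to 14.4 CPM and Adgra1 from 39.6 to 20.9 CPM. In UUO, Slurp1 in TAL went from 83.3 to 36.9 CPM, Igfbp2 from 7.91 to 3.64 CPM, and Adgra1 in TAL went from 94.0 to 41.5 CPM and Bok from 144 to 93.5 CPM. Bok in DT went from 6.60 to 19.5 CPM in UIR and from 21.7 to 116 CPM in UUO.

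Outside TAL and DT, the contrasts rest on classes that the rule did not name, but some of their cells may be among those it used. The rule took cells by a marker gate, while these classes are clusters. The contrasts also rest on the same 11 libraries, whose free RNA of the members was higher after injury. They are therefore not independent of the rule. In these classes edgeR's quasi-likelihood test was used with adjustment over all genes of a class. The connecting tubule (CNT) and the principal cells (PC) were tested together, since no UUO library held 20 cells of either alone. Bok and Marcksl1 rose in both injuries, by more in UUO. Spink12 passed the filter on low counts through the injured libraries only, so its values against control are a description. Of all genes tested in this class, 10.3% were higher in UIR, 18.8% in UUO and 3.56% higher in UUO than in UIR.

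Spink12, the protease inhibitor, was at 3.97, 1.04, 3.78, 1.81 and 4.58 CPM in the controls, at 42.8, 22.7 and 15.5 CPM in UIR and at 168, 121 and 90.9 CPM in UUO. The groups did not overlap. UUO exceeded UIR by 2.11 ± 0.32 on the log2 scale (adjusted p = 0.002457, edgeR).

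Bok was at 7.38 to 22.9 CPM in the controls, at 28.9, 21.04 and 36.7 CPM in UIR and at 121, 94.0 and 113 CPM in UUO. The lowest UIR library lay below the highest control library, and the UUO libraries stood apart. The log2 fold change was 0.93 ± 0.25 in UIR (adjusted p = 0.009293, edgeR) and 2.78 ± 0.22 in UUO (adjusted p = 2.195e-10, edgeR), with 1.85 ± 0.21 between UUO and UIR (adjusted p = 4.109e-06, edgeR). The UIR change was lost without UIR replicate 3 (log2 0.76, adjusted p = 0.06243, edgeR) and with the marker gate (log2 0.53, adjusted p = 0.3978, edgeR).

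Marcksl1 was at 11.5 to 25.3 CPM in the controls, at 122, 73.9 and 81.4 CPM in UIR and at 210, 147 and 140 CPM in UUO. Every injured library lay above every control. The log2 fold change was 2.10 ± 0.23 in UIR (adjusted p = 1.401e-06, edgeR) and 2.87 ± 0.22 in UUO (adjusted p = 3.271e-09, edgeR). UUO exceeded UIR by 0.77 ± 0.20 (adjusted p = 0.02431, edgeR), a call that was lost without UIR replicate 2 (log2 0.64), without UIR replicate 3 (0.66) and without UUO replicate 1 (0.52).

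The cells of this class differed in kind between the groups. Control cells lay in CNT-like and PC-like clusters, and 214 of 244 UUO cells lay in 1 cluster between the 2 (T8), against 2 control cells. In T8, Spink12 was at 49.2 CPM in UIR and 136 in UUO, Bok at 62.6 and 119 and Marcksl1 at 165 and 175 CPM. The summed level of 4 CNT markers fell from 13348 to 36024 CPM in control to 437 to 3237 in UUO libraries, and macrophage markers went from 0 to 11.9 CPM to 43.9 to 54.4 CPM. Their part in the result was not tested.

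In PC-like cells alone, tested for UIR against control, 2 members passed the filter and both were called, where 6.91% of all genes were. Bok fell: the controls held 14.8, 30.8, 23.6, 23.2 and 37.1 CPM and the UIR libraries 0, 11.3 and 8.66 CPM, a log2 fold change of -1.74 ± 0.44 (adjusted p = 0.006269, edgeR). The direction is opposite to that in TAL, DT and the joint class. Within the 2 PC-like clusters the levels were 48.4 CPM in 109 control and 27.5 CPM in 25 UIR cells of T24, and 4.41 and 3.68 CPM in 118 and 122 cells of T13. With the marker gate the fall was 0.41 on the log2 scale and was not called (adjusted p = 0.4859, edgeR). Marcksl1 rose from 32.2 ± 5.67 to 63.6 ± 26.1 CPM (SD, log2 0.84 ± 0.25, adjusted p = 0.02116, edgeR), but was not called without control replicate 2, control replicate 5 or UIR replicate 1 or with DESeq2 (log2 0.77, 0.80, 0.54 and 0.88). In CNT-like cells alone no member passed the filter.

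In intercalated-like cells (IC), which secrete acid or base, Marcksl1 was the only member that passed the filter, by way of the injured libraries. It was at 17.7, 8.04, 20.4, 9.56 and 8.81 CPM in the controls, at 37.7, 55.7 and 51.7 CPM in UIR and at 66.8, 56.3 and 71.8 CPM in UUO. Every injured library lay above every control. Because of the way it passed, the fit with no filter on low counts is given in place of the filtered fit, a choice made after the values were seen. There it rose by 1.68 ± 0.26 on the log2 scale in UIR (SE, adjusted p = 1.692e-08, edgeR) and by 1.998 ± 0.26 in UUO (adjusted p = 2.312e-12, edgeR), where 4.45% and 7.54% of all genes were higher. The injuries differed by 0.32 ± 0.20 (adjusted p = 0.6728, edgeR). Spink12 was at 0 in all 5 control libraries, at 1.18, 7.91 and 10.6 CPM in UIR and at 2.67, 6.499 and 5.52 CPM in UUO. It failed the filter on low counts. Without that filter it was called in both injuries, but against a control count of 0, so nothing is read from the call. Its mean in UUO, 4.90 CPM, was below that of the UUO empty droplets (8.84 CPM). Of the IC-like cells, the 234 control cells lay in T6, T25 and T29, while T10, with no control cell, held 149 of 494 UIR and 169 of 223 UUO cells. Macrophage markers were at 0 to 11.7 CPM in control, 39.1 to 66.5 in UIR and 37.9 to 85.5 in UUO libraries of this class, and their part in the result was not tested.

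**Figure D3:**
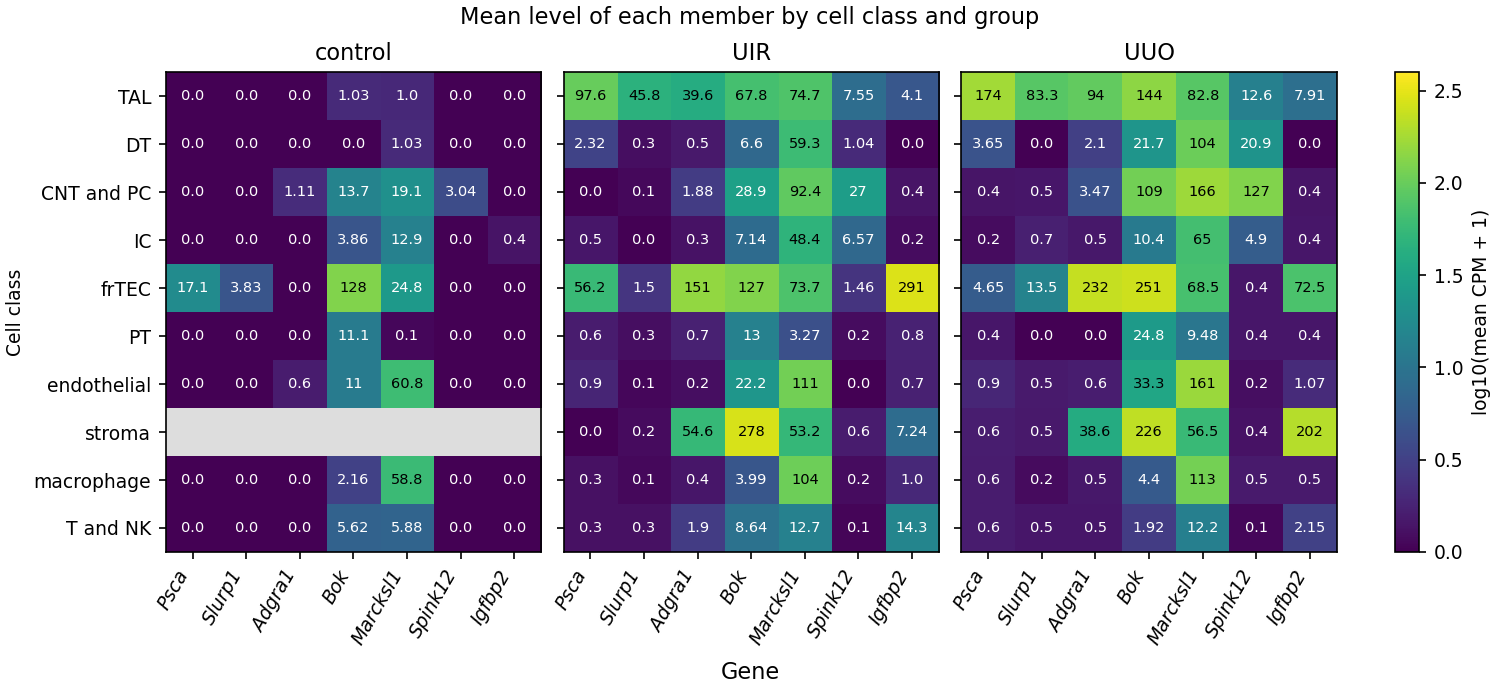
Mean CPM of each gene (columns) in each cell class (rows) in control, UIR and UUO libraries, printed in each cell and colored by log10 of the mean CPM plus 1, with classes that no control library held in 20 cells in grey. Psca and Slurp1 are high in TAL, Psca also in frTEC after UIR, and Adgra1 in TAL and frTEC. Spink12 is high in CNT and PC, Igfbp2 in frTEC and stroma, and Marcksl1 and Bok across several classes.

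Among the named tubular classes, Igfbp2 and Adgra1 had their highest group means in frTEC-like cells, with uneven libraries. Adgra1 was at 235, 97.0 and 122 CPM in UIR and at 185, 101 and 410.2 CPM in UUO, where UUO replicate 3 raised the mean to 232 CPM. Igfbp2 was at 69.7, 452 and 352 CPM in UIR. In UUO it was at 7.57, 204 and 5.78 CPM, so that UUO replicate 2 carried the mean of 72.5 CPM and the other 2 libraries lay below the mean of the UUO empty droplets (21.3 CPM). Bok was at 127 CPM in UIR and 251 in UUO, and already at 72.8 and 182 CPM in the 2 control libraries that held 20 cells. Of all genes tested there, edgeR called 3.36% in UIR and 3.9% in UUO. Bok and Marcksl1, which had counts in both control pools, were not called: Bok had an adjusted p of 0.9821 in UIR and 0.24 in UUO, and Marcksl1 of 0.0885 and 0.1087 (edgeR). Adgra1 and Igfbp2 were at 0 in both control pools and Psca in 1 of them, so that they passed the filter by way of the injured libraries and no test is given. The frTEC-like cells too lay in different clusters: of 80 control cells 49 lay in T21, 20 in T14, 7 in T9 and 4 in T12, while T9 and T12 held 264 and 203 of 713 UIR cells and 53 and 56 of 206 UUO cells. The 49 control cells of T21 already held Psca at 20.9 CPM, on 9 UMIs, and Slurp1 at 6.97 CPM, on 3 UMIs. The summed level of 6 stroma markers in frTEC-like cells was 0 to 107 CPM in control, 788 to 1885 in UIR and 350 to 1567 in UUO libraries, and their part in these levels was not tested.

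The clusters below were picked after their Igfbp2, Psca and Adgra1 levels had been seen. In T14, led by Adgra1, Bst1 and Slc14a2, Adgra1 was at 535, 394 and 291 CPM in UIR and at 278, 174 and 407 CPM in UUO. Psca in the same cells was at 2.16, 422 and 354 CPM in UIR and at 6.62, 0 and 0 CPM in UUO. Igfbp2 was at 2.16, 1343 and 541 CPM in UIR and at 0 in all 3 UUO libraries. UIR replicate 1 thus resembled the UUO libraries for Psca and Igfbp2, although it held 35 cells of the cluster, and Adgra1 was high in all 6 libraries.

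In T12, led by Tnc and Ankrd1, Igfbp2 was at 234, 620 and 384 CPM in UIR and at 75.4, 325 and 52.4 CPM in UUO, the last on 2 cells. Psca was nearly absent there, at 0.666 CPM in UIR. Igfbp2 was also high in an unnamed cluster, T30, led by Igfbp2, Map1b, Tagln and Mgp, with 64 UIR, 30 UUO and no control cells: 1913, 2526 and 3614 CPM in UIR and 1087, 1565 and 2306 CPM in UUO, the last on 1 cell. Psca, Slurp1, Adgra1 and Spink12 were at 0 in T30. In another unnamed cluster, T3, led by Lars2 and mitochondrial genes, 26 shallow UUO cells held Igfbp2 at 2117 CPM, on 41 UMIs. Igfbp2 was therefore present in injured kidneys mostly outside TAL and DT.

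**Figure D4:**
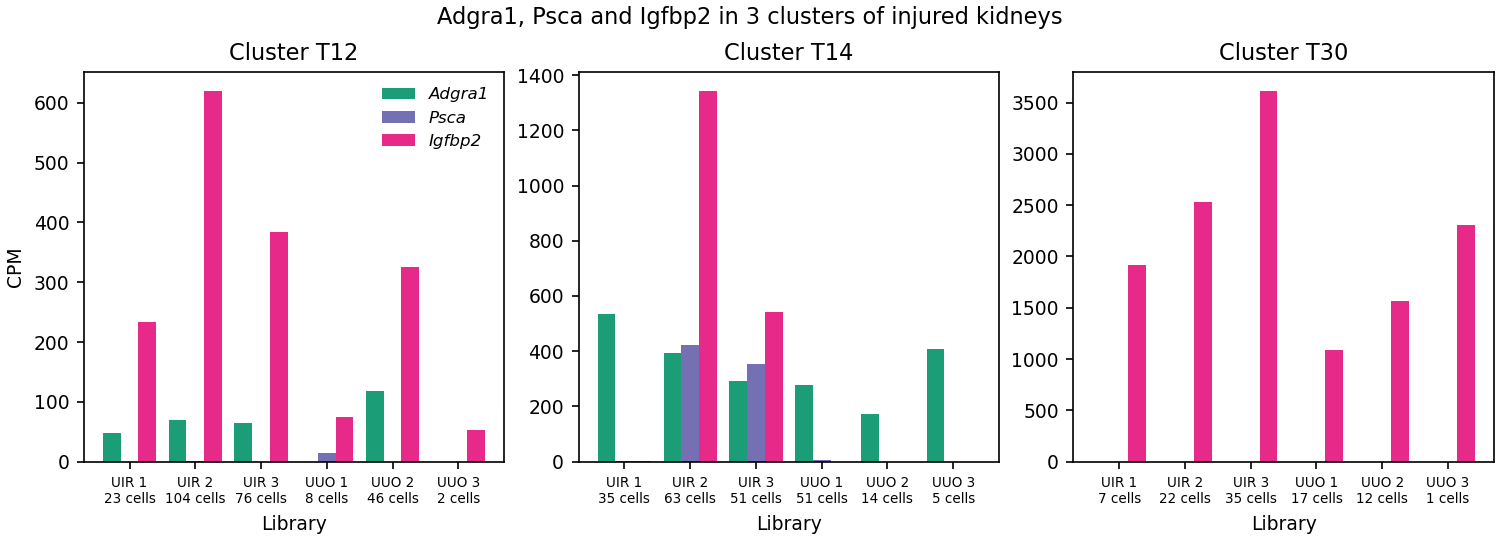
CPM of Adgra1, Psca and Igfbp2 in each UIR and UUO library in clusters T12, T14 and T30, with the number of cells under each library and a linear axis from 0 that differs between the 3 panels. In T14 Psca and Igfbp2 stand in UIR replicates 2 and 3, at 354 to 1343 CPM, while Adgra1 stands in all 6 libraries.

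Classes outside the nephron's distal segments were tested in the same way. In endothelial-like cells Marcksl1 rose from 60.8 ± 17.9 CPM to 111 ± 26.9 in UIR (SD, adjusted p = 0.02994, edgeR) and 161 ± 27.4 in UUO (adjusted p = 6.882e-05, edgeR), where 1.11% and 5.5% of all genes were higher. Bok there was at 10.98 ± 5.27 CPM in control, 22.2 ± 6.60 in UIR (adjusted p = 0.1188, edgeR) and 33.3 ± 5.13 in UUO (adjusted p = 5.827e-04, edgeR), the last below the mean of the UUO empty droplets (42.8 CPM). In macrophage-like cells Marcksl1 rose from 58.8 to 104 CPM in UIR (adjusted p = 0.02247, edgeR) and 113 CPM in UUO (adjusted p = 0.0101, edgeR), where 3.64% and 5.49% of all genes were higher.

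In PT-like cells Marcksl1 was at 0.118 ± 0.123 CPM in control (SD, n = 5) and 3.27 ± 1.56 in UIR (SD, n = 3). In UUO it was at 27.2, 1.27 and 0 CPM, on 2 UMIs in all. It passed the filter through the injured libraries only, so no test is given. The level in PT stayed below that of the empty droplets (20.003 CPM in UIR). Bok was at 11.1 CPM in control PT-like cells and did not pass the test in either injury (adjusted p = 0.6807 and 0.8897, edgeR).

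The stroma held 1 to 6 cells per control library, so no control pool could be made. Bok reached 298, 303 and 232 CPM in UIR and 276, 325 and 75.7 CPM in UUO. All of these but UUO replicate 3 were above every TAL library. Igfbp2 was at 5.07, 10.4 and 6.22 CPM in UIR and at 450, 151 and 3.44 CPM in UUO, an uneven spread with UUO replicate 3 at the low end. The log2 fold change of UUO over UIR for Igfbp2 was 4.75 ± 1.56 (SE) and did not pass the test (adjusted p = 0.4874, edgeR).

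Psca and Slurp1 lie next to each other on chromosome 15, in the Ly6/uPAR cluster. On GRCm38, Psca is at chr15:74714839-74717069 on the plus strand and Slurp1 at chr15:74724318-74728034 on the minus strand, 7249 bases apart, with Them6 between them and the last bases of Slurp1 over the end of Them6 on the other strand. Whether counting used strand is not given in the sources used here, so the split between Slurp1 and Them6 is uncertain. Bok is at chr1:93685660-93695764, Igfbp2 at chr1:72824503-72852474, Marcksl1 at chr4:129513581-129515985 and Adgra1 at chr7:139834174-139878088, all on the plus strand.

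The 20 counted genes within 200000 bases of the 2 genes, a window chosen after the levels were seen, are given by their levels in TAL. Them6, which encodes a thioesterase superfamily protein, was at 11.1 CPM in control, 72.1 in UIR and 109 in UUO. Lypd2, a Ly6/uPAR family gene, was at 0 in control and at 13.0 and 25.2 CPM in UIR and UUO, at least 8.44-fold and at least 16.4-fold above the floor. Lynx1, which modulates nicotinic receptors, was at 38.3, 86.2 and 118 CPM.

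Ly6d, known from keratinocytes and B cell precursors, was at 2.11 CPM in control, on 4 counts, and at 15.6 in UIR and 13.8 in UUO. D730001G18Rik was at 9.28, 6.38 and 4.06 CPM. Arc and Jrk, on the other side of Psca, and the remaining genes of the window had under 5 CPM in every group. On the CPM scale ratios exceed the fitted fold changes by a median of 0.23 (UIR) and 0.24 (UUO) in log2 in TAL and 0.33 and 0.38 in DT.

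**Figure D5:**
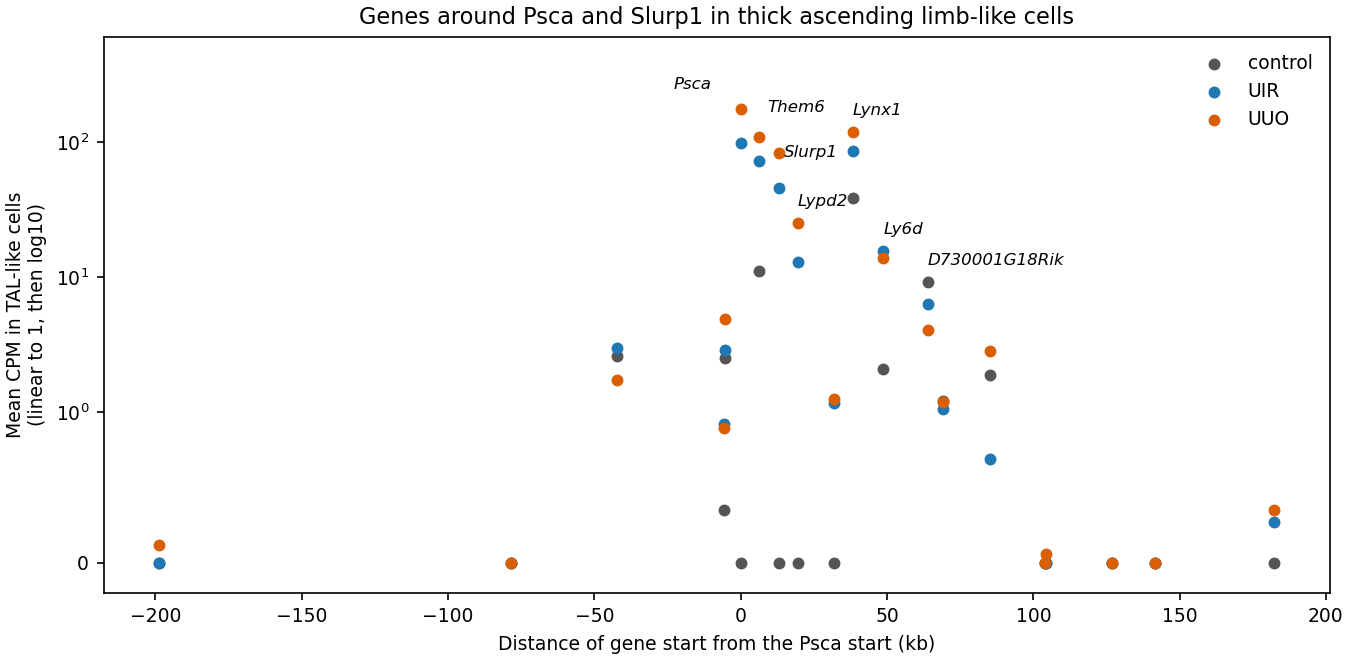
Mean CPM in TAL-like cells of the 20 counted genes within 200000 bases of Psca and Slurp1, against the distance of the gene start from the Psca start in kilobases, for control, UIR and UUO, on an axis linear to 1 and then log10. Psca, Them6, Slurp1, Lypd2, Lynx1 and Ly6d lie together on 1 side and stand higher in UIR and UUO than in control.

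Other genes of the members' families and pathways were taken from fixed lists. Each list is given by its counts and its median log2 fold change. The median over all genes was 0.07 in UIR and 0.06 in UUO in TAL and 0.04 and 0.05 in DT. Of all genes tested, edgeR called 30.9% in UIR and 36.5% in UUO in TAL, and 36.6% and 40.9% in DT, in either direction. Some list counts lie near these shares, and nothing is read from the counts. A list gene at 0 in control passed the filter by way of the injured libraries, so the direction of its call was set in advance. Of the Ly6/uPAR family, 13 of 33 other genes were tested in TAL: 8 were higher and 1 lower in each injury, with a median of 1.26 in UIR and 1.66 in UUO. Of the 13, 4 were at 0 in control, among them Lypd2, which was called higher. Ly6e, a broadly expressed surface protein, was at 181 ± 156 CPM in control, 1833 ± 154 in UIR and 1886 ± 95.5 in UUO (SD; log2 3.08 ± 0.48 and 3.11 ± 0.48, adjusted p = 0.00123 and 9.472e-04, edgeR). Cd59a, which blocks complement, was lower in both. In DT, 3 of 7 were higher and 2 lower in each injury, with medians of -0.43 and 0.05.

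Of the 13 subunits of the nicotinic receptor family, 2 were tested in TAL and both were called, in opposite directions, with medians of 0.70 and -0.27 (0.26 and -0.72 in DT). They were named after their values had been seen, and whether Slurp1 acts on receptors with these 2 subunits was not tested. Chrnb1, a muscle-type subunit, was at 1.75 CPM in control, on 3 counts, and at 35.8 and 43.4 CPM in UIR and UUO. Chrna4 fell from 5.40 to 0.788 and 0.118 CPM (adjusted p = 0.00414 and 1.815e-04, edgeR). Both were also called in DT, where Chrna4 fell from 48.2 to 7.80 and 1.52 CPM (adjusted p = 3.96e-11 and 7.285e-14, edgeR).

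Of the IGF axis, 13 of 18 genes were tested in TAL: 2 were higher and 5 lower in UIR, and 3 and 6 in UUO, with medians of 0.09 and -0.85. Igfbp7 rose from 614 to 2108 and 2584 CPM, and Igf1r was at 153, 230 and 244 CPM, called in UUO. Irs1, which carries the insulin and IGF signal, was lower in both (named after its values had been seen; 18.5 to 6.12 and 5.82 CPM). In DT, 3 of 10 were higher and 2 lower in UIR, and 4 and 4 in UUO, with medians of -0.02 and -0.09, among them Igfbp5, which rose from 14.02 to 89.3 and 111 CPM.

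Of the BCL2 family, 16 of 22 other genes were tested in TAL: 6 were higher and 1 lower in UIR, and 9 and 1 in UUO, with medians of 0.66 and 0.82. The lower one was Bcl2, an anti-apoptotic gene, at 96.0 CPM in control and 64.5 and 56.5 CPM in UIR and UUO. Mcl1, also anti-apoptotic, rose from 98.1 to 197 and 213 CPM. Bbc3, which encodes the p53-induced protein PUMA, stood among those called in both (named after its values had been seen; 5.75 to 23.1 and 25.9 CPM). In DT, 7 of 15 were higher and 1 lower in each injury, with medians of 0.41 and 0.67, among them Bmf, a pro-apoptotic gene, which rose from 11.4 to 54.2 and 61.9 CPM.

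Of the serine protease inhibitors and their proteases, 13 of 22 other genes were tested in TAL: 4 were higher and 4 lower in UIR, and 5 and 4 in UUO, with medians of 0.43 and 0.57. Klk1, a kallikrein protease of the distal nephron, fell from 4560 to 2168 and 1266 CPM, while St14, a membrane protease, rose from 64.6 to 176 and 199 CPM. In DT, 7 of 8 were higher and 1 lower in UIR, and 6 and 1 in UUO, with medians of 1.08 and 1.14. Spink1, another Kazal inhibitor, fell there from 50.5 to 31.2 and 2.32 CPM, opposite to Spink12, while Spink8 stood at 1.18 CPM in control, on 3 counts, and at 43.4 and 105 CPM. The summed level of the 8 PT markers fell in the same DT pools, from a median of 264 CPM in control to 90.6 in UIR and 16.5 in UUO. Their part in the fall of Spink1 was not tested.

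Of the adhesion receptors, 10 of 29 others were tested in TAL: 5 were higher and none lower in UIR, and 5 and 1 in UUO, with medians of 0.75 and 0.78. Adgrg1, which binds matrix proteins, rose from 245 to 449 and 506 CPM in TAL and from 41.6 to 366 and 521 CPM in DT. In DT, 6 of 9 were higher and none lower in each injury, with medians of 0.98 and 1.31. Of the genes around MARCKS, 12 of 14 were tested in TAL: 4 were higher and none lower in UIR, and 5 and 1 in UUO, with medians of 0.36 and 0.37, and in DT 3 and 4 of 9 were higher and none lower, with medians of 0.18 and 0.41. Marcks, the close relative of Marcksl1, was at 0.951 CPM in control TAL, on 2 counts, and at 37.8 ± 4.25 and 64.7 ± 4.97 CPM in UIR and UUO (SD), and in DT at 0 in control and at least 11.4-fold and 44.1-fold above the floor. Of the 9 injury and developmental genes that the study itself picked, which is not independent of these samples, 8 were higher in each injury in TAL, with medians of 2.68 and 2.77 (2.37 and 2.58 with the gene at 0 in control at its bound), and 8 of 8 in DT, with medians of 2.71 and 3.14. Lcn2, the lipocalin of injured tubules, rose in TAL from 23.04 to 1580 and 2236 CPM.

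Finally, genes were ranked by how alike their levels were to each member's over 49 pools of TAL, DT, CNT, PC and IC cells, by Pearson's r of log2(CPM + 10) among 8751 genes of at least 10 CPM on average, which leaves out Slurp1, Adgra1, Spink12 and Igfbp2 as partners. The pools share libraries and include the TAL and DT pools by which the members were chosen, so r is a description. Of the ranked genes, Psca was most like 2200002D01Rik (0.946), Gabrp (0.943) and Them6 (0.929), Slurp1 most like Psca (0.980) and Adgra1 most like Psca (0.9749). Igfbp2, at a mean of only 0.84 CPM over the pools, was most like Psca (0.843), with 0.847 for the unranked Adgra1. Bok was most like Ptrf (0.909), Anxa1 (0.902) and 2200002D01Rik (0.883), Marcksl1 most like Krt8 (0.936), Ly6e (0.933) and Tuba1a (0.920), and Spink12 most like Gbp2 (0.747). The members fell apart by this measure: Psca with Slurp1 and Adgra1 had r of 0.97 to 0.98 with each other, while Psca with Marcksl1 and Spink12 had 0.466 and 0.363. This split rests in part on the levels by which the members were chosen, and nothing is read from it.

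Gabrp, a GABA receptor subunit, was at 8.12 CPM in control TAL and at 104 and 109 CPM in UIR and UUO. 2200002D01Rik was at 3.90, 161 and 271 CPM, and Anxa1, an annexin of the resolution of inflammation, at 4.401, 245 and 363 CPM. These genes were chosen for their pattern, and no test is given.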

How the data were processed

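The deposited unfiltered UMI counts per gene and barcode (28692 genes, 11 libraries), which the authors made with 10x Genomics software (Cell Ranger 3.1.0 per the submitters' processing notes) on mm10, were used. The authors' later removal of free RNA and doublets is not in these counts. Barcodes were called as cells from their UMI totals and, from 500 UMIs, against the empty-droplet profile (FDR 0.01), and cells over 30% mitochondrial or 5% hemoglobin UMIs, under 200 genes or in the top 7.5% of doublet scores were left out. Cells were clustered (2000 variable genes, 40 components, Leiden), clusters were named from fixed markers, and the 8692 tubular cells were clustered again at resolution 2, a choice made after cluster markers and member levels had been seen. UMIs were summed per class and library with at least 20 cells and tested with edgeR 4.0.16 (TMM, filterByExpr, quasi-likelihood, Benjamini-Hochberg adjustment over all genes of a class, R 4.3.3), a code tested on simulated data. DESeq2 1.42.0 was an alternative. The study's methods give as many mice as there are libraries here (5 naive mice and 3 for each model), while the labels tie no library to an animal. The genes named are the 7 in every class, up to 3 called genes per list with the largest change and 50 CPM or more, the 3 genes most like each member, and all urothelial markers. The members and lists were chosen with earlier results of these data known. Library pairs shared at most 16 cell barcodes. The sources used here do not give the strand setting of the counting.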

Additional observations from a re-analysis of the deposited data

Results flagged for a closer look

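Adgra1 in control CNT and PC cells stood at 3.61 CPM in control replicate 4, far from the other control libraries (0 to 1.04 CPM). The value rests on few counts: over all control libraries the PC-like cells held 6 Adgra1 UMIs and the CNT-like cells 0. Only groups of 4 or more libraries with UMIs in at least 3 were checked in this way. Chance marks about 1 in 20 groups of normally spread values, which counts this low need not be. In CNT and PC cells together UUO exceeded UIR by 1.85 (Bok), 0.77 (Marcksl1) and 2.11 (Spink12) on the log2 scale, each by edgeR's test of the difference itself, and UUO cells lay mostly in a cluster between CNT and PC.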

How the results depend on the processing

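With a mitochondrial limit of 15%, which left 8 of 11 libraries in TAL, 7 in IC and 3 of 8 in PC, the members called went from 2 to 1 in PC, from 1 to 0 in IC in both injuries, and from 3 to 1 in CNT and PC together for UIR and for UUO over UIR, and the list genes called in TAL from 50 to 22 in UIR and from 59 to 30 in UUO. With a limit of 50% the IC counts were 2 in UIR and 3 in UUO, and without the filter on low counts 2 in each. DESeq2 called 1 member in PC, and the marker gate 1 in CNT against 0. Without thinning, Psca was detected in 33.0% and Marcksl1 in 57.2% of UUO cells of TAL, and Marcksl1 in 7.82% at 1000 UMIs. Leaving out 1 library gave 10 to 11 gene and segment combinations, 1 to 3 members in PC, 2 to 3 in CNT and PC for UIR and for UUO over UIR, 46 to 54 list genes in TAL for UIR, 53 to 60 for UUO, and 41 to 46 and 45 to 51 in DT. Of the mean CPM values of members, 162 moved by less than the spread between libraries and 18 by more, with the marker gate or without T2. Of the log2 fold changes, 262 kept their side of the threshold and 18 lost it, and none reversed. The alternatives for CNT and PC together, and leaving out T31 or T2, were chosen after seeing the data. With the number in the library title (none, 1 or 2) as a block no call of a member changed, and these numbers are only names. This block cuts across the control batches, which were not modelled in any fit. The causes were not tested.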
